A study of Mus musculus with 37 samples.

Results

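This report describes the barcodes with counts of Ly6c2 and Chil3, the genes that mark inflammatory monocytes, among the nonmyocytes of injured mouse hearts at day 7. They were chosen by their measured counts. A barcode was a member when it had 3 or more counts of Ly6c2 and Chil3 together and 3 or more counts of the myeloid gene Lyz2. The complement genes C1qa, C1qb and C1qc, which mark macrophages, had to stay under 0.3% of its counts, S100a8 and S100a9, which mark neutrophils, under 2%, and Col1a1, Col1a2, Col3a1 and Dcn, which mark fibroblasts, under 0.5%. The rule found 82 members among 12807 barcodes, 15 of 7460 in the ENPP1CKO library and 67 of 5347 in the control library.

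Both libraries came from C57BL/6 mice whose left anterior descending (LAD) artery had been tied off for good, a model of myocardial infarction, and held the non-myocytes of the injured heart. ENPP1CKO mice carried Col1a2CreERT and floxed alleles of ENPP1, the ectonucleotidase that splits extracellular ATP. Tamoxifen was given from 5 days before injury until day 7, so that the deletion was driven in Col1a2-expressing cells, mainly fibroblasts, and not in monocytes as such. The control library is labelled wild type in the deposited record, and littermates are named as the controls in the study's methods. Each genotype had 1 library and the number of hearts behind it was not given in the sources used here, so genotype, animal and library cannot be told apart and no test between genotypes was possible. Compared populations are the C1q macrophages (Lyz2 at 3 or more, C1q genes at or above the limit of the rule), the other Lyz2 barcodes low in C1q (under 3 counts of Ly6c2 and Chil3), and the barcodes over the collagen or S100 limits. Every interval below is a 95% interval that covers counting error only.

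Classical monocytes leave the bone marrow through the chemokine receptor Ccr2, enter the infarct in the first days and there mature into macrophages, losing Ly6c2 on the way. They bring proteases, IL-1β and neutrophil-attracting chemokines, and they also give rise to cells that clear debris. Chil3 encodes a chitinase-like protein of myeloid cells, and Plac8, Ccr2 and Ms4a4c are further genes that monocytes express more than macrophages. On GRCm38, the mouse assembly also called mm10 in the submitters' processing notes, Ly6c2 lies at chr15:75108158-75111970 and Chil3 at chr3:106147554-106167564, both on the minus strand and both protein coding. The near-identical neighbours Ly6c1 and Chil4 had 0 counts in all 82 members.

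The libraries held 28039559 counts (ENPP1CKO) and 22746607 counts (control), with at least 500 counts in each barcode. Members were of ordinary depth, with a median of 3317 counts in ENPP1CKO and 3144 in control, against 3329 and 3530.5 in barcodes of the C1q macrophage gate. Mitochondrial genes took between 0.657% and 4.27% of a member's counts. Of 68 barcode sequences found in both libraries 0 were members, and Scrublet, which called 151 and 69 doublets, called 0 members. Enpp1 (chr10:24637914-24712159) had 28.8 CPM (its counts as a share of all counts of the same barcodes, on the customary CPM scale) in ENPP1CKO and 119 in control over the barcodes rich in collagen genes, a log2 ratio of −2.04 (−2.19 to −1.90), so it was lower in the library labelled ENPP1CKO. In the members it had 1 count in ENPP1CKO and 3 in control, too few to compare.

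Not every member was a monocyte by its other genes. Of the 82, 3 were made up to a large part of antibody genes (the immunoglobulin genes and Jchain, the joining chain of secreted antibody), which took 64.7% and 72.5% of the counts in 2 ENPP1CKO members and 33.5% in 1 control member. All other members had at most 0.0882%. Both ENPP1CKO barcodes had Igha, the IgA heavy chain, with 2177 and 2113 counts, only 3 and 5 counts of Lyz2, and no Chil3 or Ccr2. The control barcode had 1710 counts of Ighm, the IgM heavy chain, beside 37 counts of Lyz2 and 3 of Ccr2, and with 25047 counts and 3686 genes it was the deepest member. These 3 barcodes, called antibody-rich below, entered through Ly6c2, of which they had 4, 7 and 13 counts. They held 38.1% of all counts of the ENPP1CKO members and 10.4% of those of the control members, so they lower the CPM of nearly every other gene, more so in ENPP1CKO. Unless marked otherwise, genotype ratios below are over the 79 that remained, 13 in ENPP1CKO and 66 in control. This choice was made after the values were seen. Values over all 82 members are given beside some of these ratios, but not beside each one.

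Most of the other members had further monocyte genes besides those of the rule. Of a list of 24 monocyte genes, which holds Ly6c2 and Chil3, between 8 and 23 were counted per barcode in ENPP1CKO (median 16) and between 6 and 22 in control (median 16). Plac8 was counted in 10 of 13 and 53 of 66 members, Ccr2 in 10 and 47, and Ms4a4c in 10 and 46. Genes that define dendritic cells (Flt3, Cd209a, Clec9a, Xcr1 and Zbtb46) had 0 counts in the members of either library, and the list of 14 dendritic cell genes summed to 3 and 35 counts, 24 of the latter from the interferon-inducible Ifi205. Of 15 genes of nonclassical monocytes, 9 were detected in ENPP1CKO and 12 in control members. They summed to 838 and 795 CPM, against 1013 and 934 CPM in C1q macrophages, and 11 of 13 and 52 of 66 members had a count. Among them Ace, Cd300e and Eno3 had 0 counts, Treml4 had 3 counts in 1 control barcode, and Gngt2, which classical monocytes also express, was found in 9 and 38 members. Of 14 neutrophil genes 4 were detected in ENPP1CKO and 11 in control, and 6 of 13 and 30 of 66 members had a count. Among these genes Ly6g, Camp and Ngp were at 0, while 1 control barcode held all 29 counts of S100a9.

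Thinning to 2000 counts per barcode, which left out 5 shallow control members, gave 69.2% and 73.8% of members with Plac8 and 69.2% and 60.7% with Ccr2. Free RNA gives counts in cells that lack a gene, and the barcodes rich in collagen genes served to gauge it. There the thinned shares, ENPP1CKO first, came to 0.346% and 0.737% for Ccr2, 0.317% and 0.579% for Ms4a4c, and 12.3% and 19.7% for Plac8. Their median depths before thinning, 4093 and 5239 counts, were above those of the members. Ly6c2 was found in 0.144% and 0.0526% of them and Chil3 in 0.0864% and 0.474%. Counts there were thus low for Ly6c2, Chil3, Ccr2 and Ms4a4c and higher for Plac8, which the collagen-rich barcodes carried at 97.9 and 179.5 CPM. The C1q macrophages carried less Plac8, as given below. How much of the Plac8 in collagen-rich barcodes was free RNA was not tested.

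**Figure D1:**
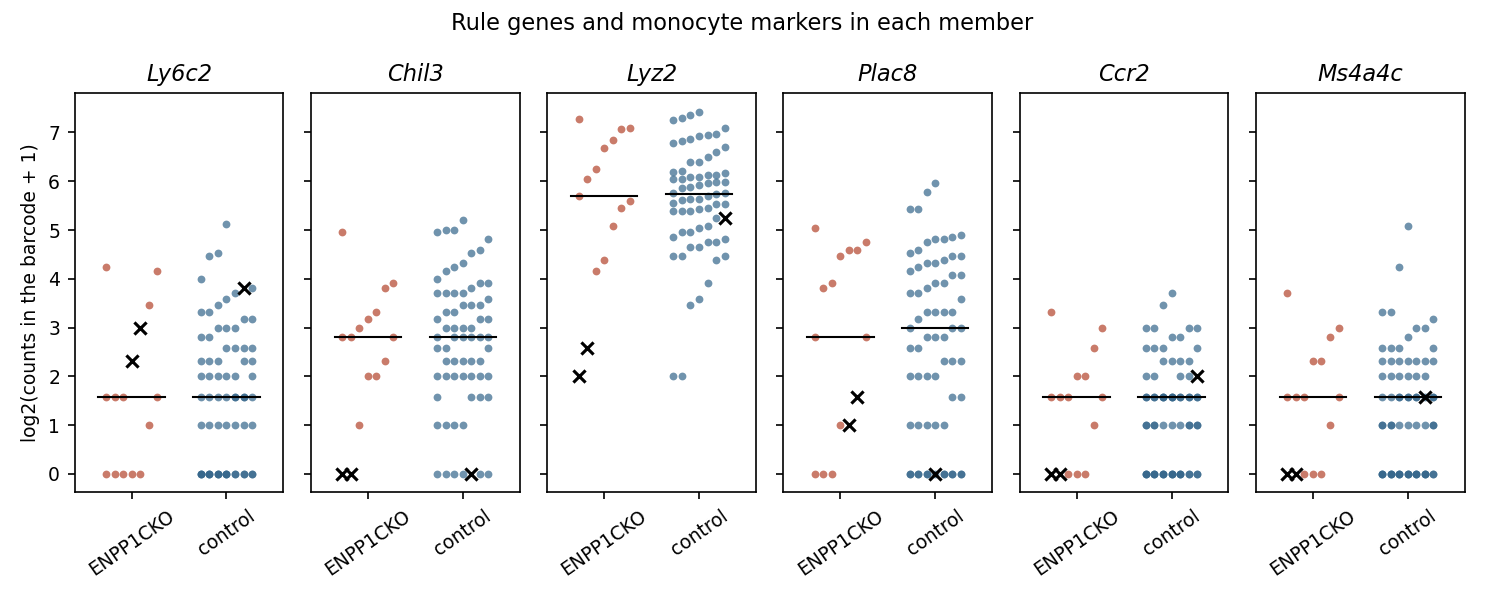
Counts of 3 genes of the rule (Ly6c2, Chil3, Lyz2) and 3 other monocyte markers in each of the 82 members, as log2(counts + 1) on the vertical axis, by library on the horizontal axis. Points are barcodes, bars are medians over all members, and crosses are the 3 antibody-rich members, which sit at or near 0 for Chil3 and Plac8 but not for Ly6c2.

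Members were rarer in the ENPP1CKO library. They made up 0.201% of its barcodes (0.113 to 0.331%, exact binomial interval) against 1.25% (0.972 to 1.59%) of control barcodes, a difference between 2 libraries whose spread between hearts was not measured. Without the antibody-rich members the shares were 0.174% and 1.23%. Among barcodes with 2000 counts or more they were 0.262% and 1.52%, and among Lyz2 barcodes low in neutrophil and collagen genes 0.711% and 2.67%. The C1q macrophages differed less, with 1943 barcodes (26.0%) in ENPP1CKO and 1940 (36.3%) in control, so there were 129.5 of them for each member in ENPP1CKO and 28.96 in control. Barcodes of the neutrophil gate were likewise fewer in ENPP1CKO, 11 against 76, and so were the other Lyz2 barcodes low in C1q, 151 against 500. Antibody-rich barcodes went the other way, with 12 in ENPP1CKO and 1 in control over the whole libraries, and 6 and 1 of them had 3 or more counts of Ly6c2 and Chil3.

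**Figure D2:**
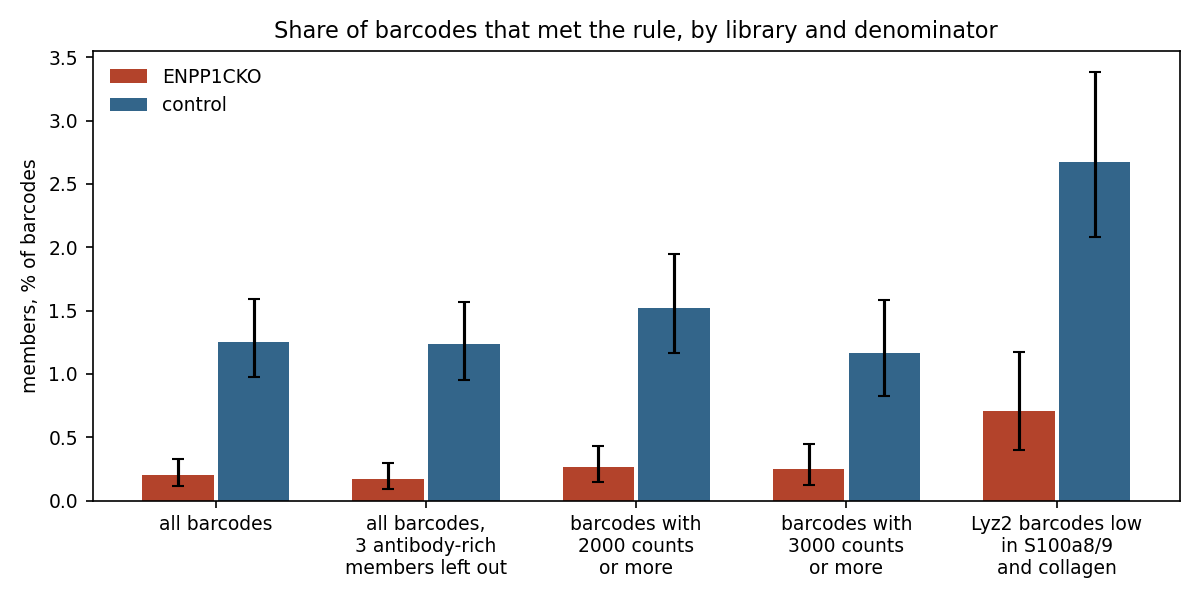
Members as a percentage of barcodes (vertical axis) in each library, over 5 denominators (horizontal axis). Bars start at 0 and error bars are exact binomial 95% intervals, and for each denominator the ENPP1CKO share lies below the control share, 0.201% against 1.25% over all barcodes.

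Most ENPP1CKO barcodes with counts of the pair failed another limit. Of 77 ENPP1CKO and 129 control barcodes with 3 or more counts of Ly6c2 and Chil3, 36 and 109 passed the Lyz2 limit, and 17 and 70 also the C1q limit. Just inside, with exactly 3 counts of the pair, were 2 ENPP1CKO members, both with Plac8, Ccr2 and Ms4a4c, and 8 control members, of which 5 had Plac8. Just outside, with 2 counts, were 5 ENPP1CKO barcodes, 3 of them with Plac8, and 15 control barcodes, 6 of them with Plac8. Between 0.2% and 0.3% of C1q counts there were 0 and 2 members, and between 0.3% and 0.4% there were 1 and 3 barcodes that met all other limits.

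The rule joined barcodes of more than 1 kind. Over the 79 members, Ly6c2 and Chil3 were both counted in 8 ENPP1CKO and 42 control barcodes, Chil3 alone in 5 and 18, and Ly6c2 alone in 0 and 6. Plac8 went with Ly6c2 in control, where 44 of 48 members with Ly6c2 had it and 9 of 18 members with Chil3 alone. In ENPP1CKO the counts were 6 of 8 and 4 of 5. All of Plac8, Ccr2 and Ms4a4c were counted in 10 ENPP1CKO and 33 control members, and none of them in 3 and 6.

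Those 3 ENPP1CKO barcodes were unlike the rest. They had 89, 150 and 224 counts of Apoe, the lipid carrier that macrophages make in large amounts, while the other 10 had between 2 and 81. They also held all 50 counts of the platelet factor Pf4, 47 of them in 1 barcode, and all 32 of Ms4a7, a macrophage gene. In the 6 control barcodes without the monocyte trio Apoe ran from 2 to 169 counts and Spp1, which encodes the matrix protein osteopontin, from 0 to 100. The 60 control members with at least 1 of the trio had between 0 and 202 Apoe counts with a median of 7, so in control the ranges overlapped.

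Antigen-presentation genes split the members as well. H2-Ab1, a chain of MHC class II, was counted in 7 of 13 ENPP1CKO and 23 of 66 control members, and 10 or more counts were found in 3 and 7 of them. Cd74, the invariant chain that escorts MHC class II, ran from 0 to 85 counts in ENPP1CKO with a median of 5, and from 0 to 219 in control with a median of 2. Class II genes together took up to 4.81% of a member's counts in ENPP1CKO and up to 9.23% in control.

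**Figure D3:**
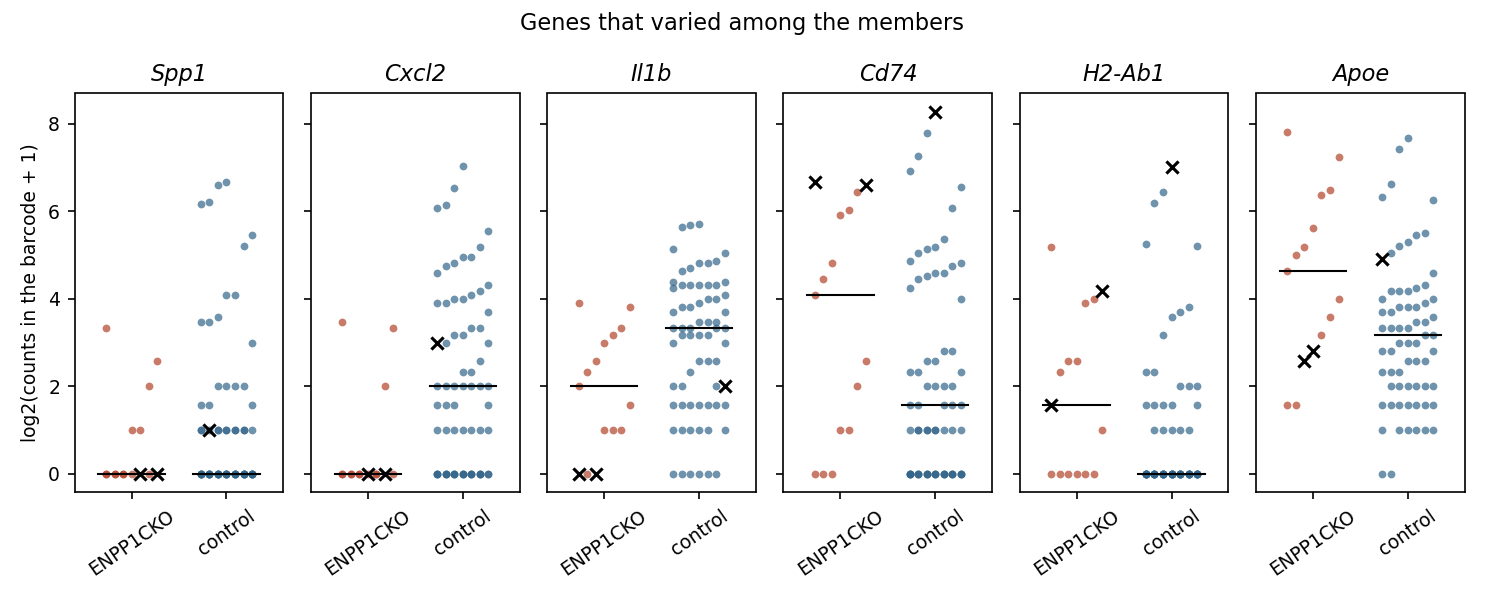
Counts of 6 genes in each of the 82 members as log2(counts + 1) on the vertical axis, by library on the horizontal axis, with bars for medians and crosses for the 3 antibody-rich members. High Spp1 and Cxcl2 counts sit in control members, and Cd74, H2-Ab1 and Apoe spread widely in both libraries.

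Outside the rule, the genes with the highest CPM in members relative to all other barcodes of the same library formed a compact set. Over all 82 members the first 4 of 15 were Jchain, Igkc, Mzb1 and Igha, which the antibody-rich members supplied. Without those members the set was led by Ms4a4c (log2 ratios of 5.54 in ENPP1CKO and 4.81 in control), Plac8 (5.48 and 4.57), the chemokine receptors Ccr1 (4.67 and 4.25) and Ccr2 (4.70 and 3.72), and the lectin Clec4e (3.82 and 3.30). The chemokines Ccl9 (4.22 and 3.24) and Ccl6 (5.05 and 3.11) and haptoglobin, Hp (3.86 and 2.86), followed. The remaining names were Tgfbi, Ms4a6b, Samhd1, Osm, Btg1, Slc7a11 and Cytip, with log2 ratios between 2.35 and 3.77. These values describe the members and are no test of them.

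The monocyte and macrophage lists hold genes of the rule, which fixes the direction of their sums against the C1q macrophages, and the sums are given as a description. The monocyte list summed to 23762 CPM in ENPP1CKO members and 25917 CPM in control members, against 5912 and 7454 CPM in C1q macrophages of the same libraries. The 16 macrophage genes summed to 20899 and 8346 CPM in members and to 74032 and 65699 CPM in C1q macrophages. Plac8 had 3840 and 3487 CPM in members and 9.30 and 36.9 CPM in C1q macrophages. Barcodes with Lyz2, little C1q and under 3 counts of Ly6c2 and Chil3 lay between them, with 452 and 233 CPM of Plac8.

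Plac8, Ccr2 and Ms4a4c had ratios near 0 between the genotypes once the antibody-rich members were set aside. Plac8 had a log2 ratio of ENPP1CKO over control of 0.14 (−0.11 to 0.38), Ccr2 of 0.24 (−0.33 to 0.77) and Ms4a4c of 0.11 (−0.41 to 0.60). The same ratios over all 82 were −0.37, −0.32 and −0.44. Ly6c2 (−0.09) and Chil3 (−0.06) were part of the rule and are given as a description. Of the 24 monocyte genes, 1 was 2-fold or more higher over the 79 members and 2 were 2-fold or more lower, with a median of −0.07. The lower ones were Vcan, the proteoglycan versican, with 3 counts in 1 ENPP1CKO member against 62 counts in 28 control members, and F10, coagulation factor X, with 3 against 46 counts (−1.62, −3.94 to 0.02). With all 82 members 0 monocyte genes were 2-fold higher and 6 lower, with a median of −0.57, and without the members lacking all of Plac8, Ccr2 and Ms4a4c the median was 0.14.

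The counts of genes past 2-fold differed with and without the antibody-rich members. Among 872 genes with 50 or more counts over the 82 members, 12 were at least 2-fold higher in ENPP1CKO (1.38%) and 163 at least 2-fold lower (18.7%), with a median log2 ratio of −0.45. Over the 79 members 803 genes could be compared, of which 12 were at least 2-fold higher (1.49%) and 89 lower (11.1%), with a median of −0.06. Of genes with 20 or more counts, used for the lists, 1.82% were 2-fold higher and 25.7% lower over the 82 members, and 3.63% higher and 14.6% lower over the 79, with medians of −0.48 and −0.13. With 1 library a genotype these are counts of genes past a fold and not of genes shown to change.

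The genes lowest in ENPP1CKO members included several that encode secreted factors. Slpi, a secreted inhibitor of leukocyte proteases, was counted in 0 of 13 ENPP1CKO members (0 to 24.7%) and, with 135 counts, in 27 of 66 control members (40.9%, 29.0 to 53.7%). With the 0 set to 3 counts over the library, Slpi was at least 8.99-fold lower in CPM. Over all 82 members Slpi showed no such difference (0.19, −0.31 to 0.66), since the 2 antibody-rich ENPP1CKO members held 49 counts. Spp1 (chr5:104435118-104441050, plus strand) had 19 counts in 5 ENPP1CKO members and 519 in 31 control members, a log2 ratio of −2.45 (−3.19 to −1.79), or −2.98 over all 82. The control counts were uneven, with 100 in 1 barcode and 10 or more in 11.

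Cxcl2, Cxcl3, Il1b and Il1rn were also among the lower genes. Cxcl2 (chr5:90903871-90905938, plus strand), a ligand of the neutrophil receptor Cxcr2, was counted in 3 of 13 ENPP1CKO members, with at most 10 counts, and in 46 of 66 control members, with up to 130. Its log2 ratio was −2.85 (−3.53 to −2.24), or −3.40 over all 82 members. Its size varied with the rule. A limit of 5 counts of Ly6c2 and Chil3, with antibody-rich members not set aside, gave −5.59. Leaving out the antibody-rich members and those lacking the trio gave −2.41. Cxcl3, a close relative of Cxcl2, had 0 counts against 83 counts in 12 control members and was at least 5.53-fold lower. Il1b (chr2:129364570-129371139, minus strand), the cytokine IL-1β, was counted in 12 and 60 members and differed in level, at 1583 and 3622 CPM (−1.19, −1.57 to −0.84, or −1.73 over all 82). With members lacking the trio left out it stood at −0.96, under 2-fold. Per barcode Il1b ran from 0 to 14 counts in ENPP1CKO with a median of 4, and from 0 to 51 in control with a median of 9, so the ranges overlapped. Il1rn, the natural antagonist of the IL-1 receptor, had 209 and 688 CPM (−1.72, −2.87 to −0.75, or −2.10 over all 82).

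Other low genes had few counts in ENPP1CKO. They were the cystine transporter Slc7a11 (3 against 103 counts, −2.78), the stress gene Ier3 (4 against 103, −2.36), the lectin Clec4n (7 against 165, −2.24), the oxygen-responsive factor Hif1a (5 against 103, −2.04), Fam49b (8 against 148, −1.89) and the copper chaperone Cox17 (1 against 101, −4.33). With the antibody-rich members these ratios were −3.31, −2.90, −2.77, −2.31, −2.27 and −2.02 in the same order. Hif1a was counted in 4 of 13 ENPP1CKO and 52 of 66 control members. Gm42418 also ranked here (5 against 117 counts), but 82 of its control counts came from 1 barcode. Over all 82 members the rule for named genes gave Ighm and Ms4a6d in place of Slpi and Cox17, and 1710 of the 1719 control counts of Ighm came from the antibody-rich member.

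Some of the genes highest in ENPP1CKO members drew much of their counts from few barcodes. Apoe (chr7:19696109-19699188, minus strand) had 16757 and 5677 CPM, a log2 ratio of 1.56 (1.43 to 1.70), or 1.02 over all 82, and the 3 barcodes without the monocyte trio supplied 463 of its 720 ENPP1CKO counts. With members lacking the trio left out in both libraries Apoe stood at 0.76. Pf4 (2.21, or 1.68 over all 82) came almost wholly from 1 barcode, as given above. Crip1, a small LIM protein, had 345 counts in 11 ENPP1CKO members, 108 of them in 1 barcode, against 812 in 65 control members (1.09, or 0.50 over all 82). Rps27l, a ribosomal protein homologue induced by p53, was counted in 12 and 50 members (1.04, 0.54 to 1.52), with 18 of its 51 ENPP1CKO counts in 1 barcode, and stood at 0.79 over all 82. Eif3f, Rbx1, Cybb, Ctsh, Ms4a7, H2afz, Npm1 and Rap1a followed with log2 ratios between 0.74 and 0.93. Of these, Ms4a7 was not higher over all 82 members, with 461 CPM in ENPP1CKO and 491 CPM in control. Over all 82 members the highest ratios belonged to Igha, Jchain, Igkc and Mzb1.

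**Figure D4:**
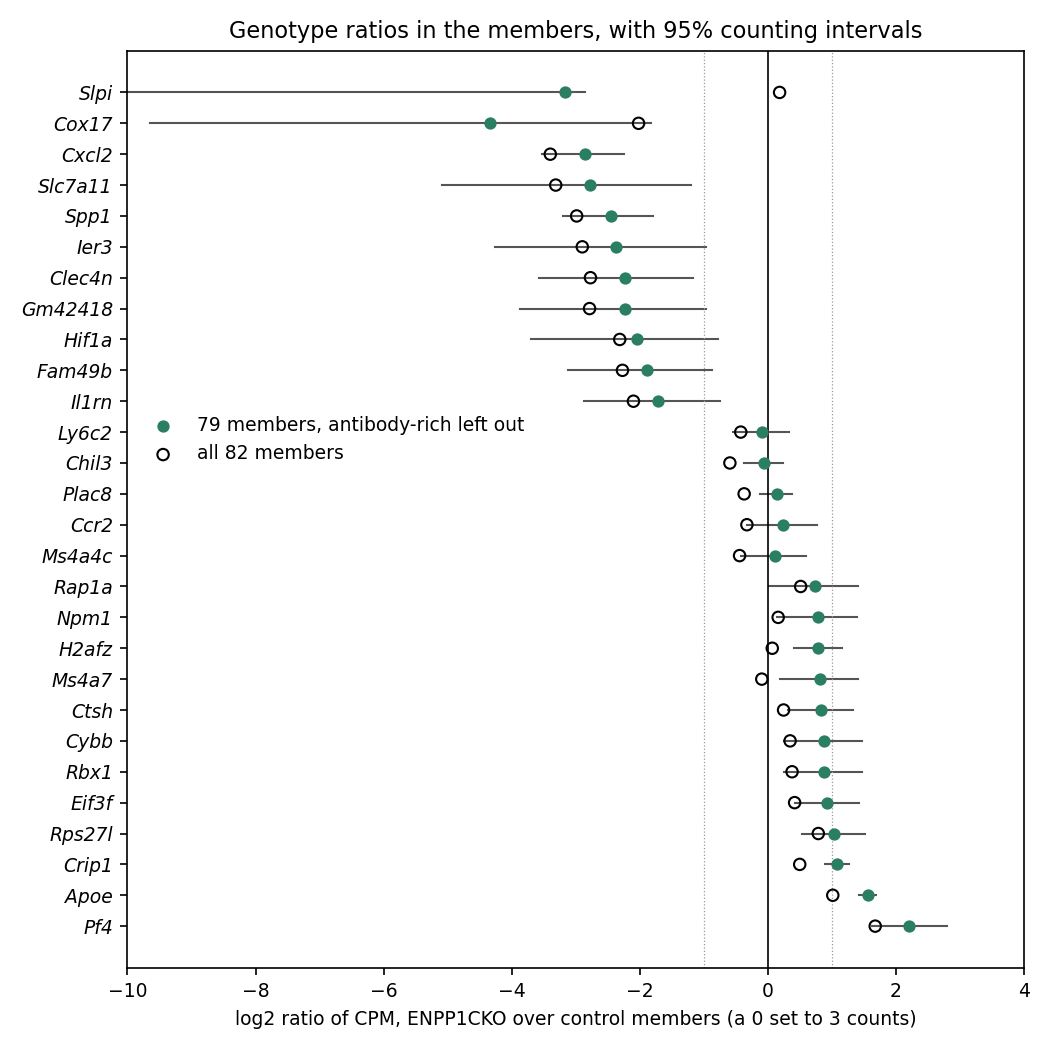
Log2 ratio of CPM in ENPP1CKO over control members (horizontal axis) for 11 of the 12 lowest and the 12 highest genes over 79 members and, between them, the 5 monocyte markers. Filled points and lines give the 79 members with 95% counting intervals and open points all 82 members. Slpi moves from 0.19 to a bound below −3 when the antibody-rich members are left out, and the markers stay near 0.

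The members' secreted factors included several low genes. Of 7 measured cytokines and growth factors 4 were 2-fold or more lower over the 79 members (median −1.19) and 6 over all 82 (median −1.73), among them Spp1, Vegfa, Il1rn and Il1b. Vegfa, the angiogenic factor, had 3 counts in 3 ENPP1CKO members against 60 counts in 30 control members. Of 10 chemokines 2 were higher and 3 lower, with a median of 0.20, and over all 82 members 1 of 11 was higher and 4 lower, with a median of −0.16. With members lacking the trio also left out the chemokine median and the cytokine median were both −0.96. Ccl4 was higher (489 and 163 CPM, 1.59, but 0.14 over all 82) and Ccl7 lower (−2.30), with 3 counts in 1 ENPP1CKO member against 74 in 11 control members. The abundant Ccl6 (0.37) and Ccl9 (0.03) stayed under 2-fold, and 1 ENPP1CKO barcode held 105 of 226 Ccl6 counts.

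Glycolysis and hypoxia genes had 4 of 16 measured genes 2-fold or more lower, 0 higher and a median of −0.48. Slc16a3, the lactate exporter (2 against 70 counts, −2.81), Pkm, pyruvate kinase (582 and 1516 CPM, −1.38), and Aldoa, aldolase (396 and 809 CPM, −1.03), were among the 4, while Gapdh (−0.19) and Gpi1 (−0.12) were not. Receptors for microbes and debris had 6 of 22 lower and 1 higher, with a median of −0.44. Msr1, the scavenger receptor A, was lower (−1.26), as was Clec4n, and the Fc receptor chain Fcer1g was level (−0.03). Cd14, the LPS co-receptor, had 2700 and 4315 CPM (−0.68). Adhesion genes had 5 of 19 lower and 1 higher (median −0.20), with Cd44, the hyaluronan receptor, at −1.38 and Cd52 at 0.26. Attractant receptors had 5 of 14 lower (median −0.41), Ccr1 among them (−1.17), although Ccr2 was not. With the antibody-rich members the lower counts were 8 of 17 for glycolysis and hypoxia (median −0.99), 10 of 22 for receptors of microbes and debris (−0.93), 6 of 19 for adhesion (−0.71) and 8 of 14 for attractant receptors (−1.13), with 0 higher in each.

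MHC class II genes had ratios above 0 over the 79 members but mostly below 0 over all 82. All 6 measured genes lay above 0 over the 79 members, between 0.17 and 1.08, with a median of 0.50, and 1 of them, H2-DMa, which loads peptide, was past 2-fold. H2-Aa had 2025 and 1311 CPM (0.63, 0.26 to 0.98) and Cd74 6563 and 4929 CPM (0.41, 0.22 to 0.60). Class II counts were uneven, with up to 146 of 535 in a single ENPP1CKO barcode and up to 453 of 1929 in a single control barcode. The intervals do not cover this spread between barcodes. The median over all 82 was −0.34 and 0 genes were past 2-fold, with H2-Aa at −0.31 and Cd74 at 0.27. The antibody-rich barcodes held 669 of 2598 control and 229 of 764 ENPP1CKO class II counts. Lysosome and lipid genes had 3 of 29 higher and 3 lower with a median of 0.36, Apoe and Spp1 among them, and over all 82 members 2 higher and 7 lower with a median of −0.24. Leaving out members that lacked the trio as well gave a lysosome and lipid median of −0.58.

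The remaining pathway lists, other than the p53, pyrimidine, purine receptor and cell cycle lists given below, had medians between −0.49 and 0.04. Interferon-stimulated genes had 2 of 17 lower and 0 higher (median −0.28), with Ifitm3 at 5539 and 4631 CPM. Isg15 (−0.86) drew 54 of its 91 control counts from 1 barcode. Iron, heme and NRF2 genes had 2 of 13 lower, Slc7a11 among them (median −0.30), and the ferritin chains Fth1 (−0.33) and Ftl1 (0.28) went in opposite directions. Myeloid transcription factors had 3 of 17 lower, Hif1a among them (median −0.38). Immediate early genes, which also respond to tissue dissociation, had 3 of 19 lower and a median of 0.04, with Fos at 0.50 and Junb at −0.37. Apoptosis regulators had 4 of 12 lower and 1 higher (median −0.49), and the survival gene Bcl2a1b stood at −1.46. Of 7 glucocorticoid-responsive genes 2 were lower (median −0.37) and of 5 coagulation and complement genes 2 were lower (median −0.31). Medians over all 82 were −0.81 for interferon-stimulated genes (8 of 19 lower), −0.85 for iron, heme and NRF2 genes (4 of 13), −0.74 for transcription factors (4 of 17) and −0.37 for immediate early genes (2 of 19). They were −0.93 for apoptosis regulators (5 of 13), −0.94 for glucocorticoid-responsive genes (2 of 7, with 1 higher) and −0.86 for coagulation genes (2 of 5).

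Of the pathways that the study was about, the lists on pyrimidine synthesis and salvage and on purine receptors and ectonucleotidases had few counts. The p53 target list summed to 3328 CPM in ENPP1CKO and 2529 CPM in control over the 79 members (log2 ratio 0.40, 0.12 to 0.66). Over all 82 members the log2 ratio of this sum was 0.09 (−0.16 to 0.34). Of 6 measured p53 targets 1, Rps27l, was past 2-fold, with Cdkn1a at 0.42 (−0.09 to 0.91) and Bax at −0.22 (−1.29 to 0.72), and a median of −0.20, or 0 past 2-fold and a median of −0.75 over all 82, and 0.07 without the members that lacked the trio. In these lists 2 pyrimidine synthesis and salvage genes and 5 purine receptor and ectonucleotidase genes had 20 or more counts. Of these, 0 and 2 were 2-fold or more lower, or 1 and 2 over all 82. The purine receptor and ectonucleotidase list had a median of 0.26 over the 79 members and −0.29 over all 82. The log2 ratio of its sum over the 79 was 0.03 (−0.41 to 0.44). Nme1, a nucleoside diphosphate kinase, stood at −0.68 (−1.86 to 0.33), and Uck2, a uridine kinase, had 0 counts against 18. Cell cycle genes over the 79 members summed to 1001 CPM in ENPP1CKO and 744 in control for the G2 and M phase list (log2 ratio 0.43, −0.09 to 0.92), with 1 of 3 measured genes 2-fold higher, and to 628 and 437 CPM for the S phase list (0.52, −0.15 to 1.15). With the antibody-rich barcodes kept, the log2 ratios of these sums were −0.76 (−1.21 to −0.33) and −0.17 (−0.75 to 0.39). Of the proliferation genes Mki67 and Top2a, picked after their values were seen, the first had 0 counts and the other 1 and 2 counts in the 79 members. The antibody-rich control barcode held all 6 Mki67 counts and 150 of the 310 control counts of G2 and M phase genes.

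Among markers of other cells in the 79 members, those of macrophages were abundant and the others scarce. The summed fibroblast list had 1210 CPM in ENPP1CKO and 1130 CPM in control, T and NK cell genes 0 and 7 counts, endothelial genes 2 and 8 counts, cardiomyocyte genes 0 and 4 counts, and smooth muscle genes 1 and 9 counts. Neutrophil genes had 209 and 516 CPM, but 1 control member, with S100a8 and S100a9 at 1.6% of its counts, held 70 of the 111 control counts, and without the member richest in these genes in each library the sums were 126 and 193 CPM. Macrophage genes had 20899 and 8346 CPM, mostly Apoe, against 23762 and 25917 CPM for the monocyte list. Whether these counts had a part in the genotype ratios was not tested.

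Some of the ratios were shared with other myeloid barcodes and some were not. Slpi was lower in ENPP1CKO also in the C1q macrophages (6.83 and 294 CPM, −5.43) and in the other Lyz2 barcodes low in C1q (117 and 989 CPM, −3.08). Spp1 stood at −1.04 and −1.52 and Hif1a at −0.93 and −2.36 there. Il1b was lower in members but higher in C1q macrophages, with 1934 CPM in ENPP1CKO and 991 in control (0.96, 0.92 to 1.01), and Cxcl2 was also higher there (0.52, 0.49 to 0.55). In the other low-C1q barcodes Cxcl2 was lower (−1.30) and Il1b slightly higher (0.32). Plac8, level in members, was lower in ENPP1CKO C1q macrophages (−1.99) and higher in the other low-C1q barcodes (0.96). These ratios come from the same 2 libraries, and their differences between populations were not tested.

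**Figure D5:**
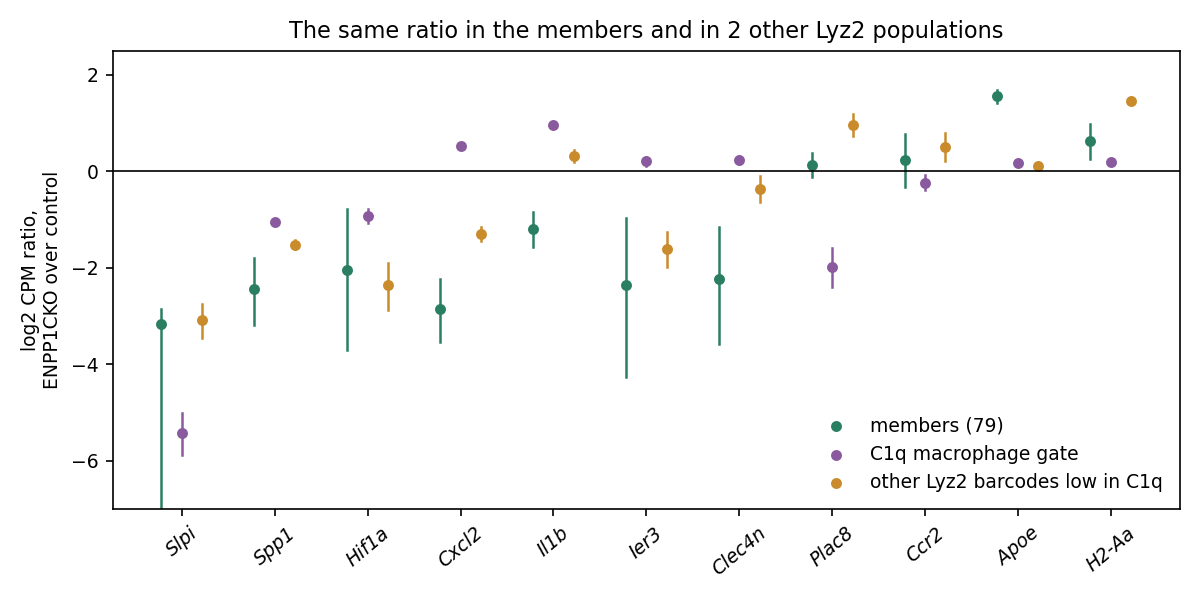
Log2 ratio of CPM in ENPP1CKO over control (vertical axis) for 11 genes (horizontal axis) in the 79 members, the C1q macrophage gate and the other Lyz2 barcodes low in C1q. Points are ratios, with a 0 in members set to 3 counts, and lines are 95% counting intervals, cut at −7. Slpi and Spp1 lie below 0 in all 3 populations, while Cxcl2 and Il1b lie below 0 in members and above 0 in the C1q macrophage gate.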

How the data were processed

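Nonmyocytes from 1 control and 1 ENPP1CKO library at day 7 after injury were analysed. For each the authors deposited whole-number counts per gene and barcode, not normalized, with 31053 gene IDs, of which 30934 were matched to symbols. Cell Ranger and STAR 2.5.3a, and the builds mm10 and rn6, are named in the submitters' processing notes. Columns left unused in these tables numbered 0, and the other samples of the series were not analysed here. Analysis was done in Python 3.11.15 with numpy 2.4.6, scipy 1.17.1 and scanpy 1.11.5, whose Scrublet function was run on each library.

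Counts of members were summed per library and scaled to CPM. A log2 ratio was given its exact conditional binomial 95% interval, with 0.5 counts added only where a library had 0, or 3 counts for a bound. Shares were given exact (Clopper-Pearson) intervals, which cover counting error only. Fold counts used genes with 50 or more counts, and lists genes with 20 or more. Genes were named by markers, by the 15 highest over other barcodes, by the 12 highest and lowest ratios (100 or more counts), and by up to 3 in each direction and the 3 most abundant per list. For the highest and lowest ratios the interval had to leave out 0, and the gene had to reach 10 counts, and 0.5 of the CPM of other barcodes, in the library where it was higher. The same rule was repeated without antibody-rich members (10% or more antibody counts). The ratio was tested on simulated data drawn with counting error only, without spread between barcodes or libraries. That test does not show how the intervals hold under such spread. Members and lists were chosen with earlier results of these data known. Some items are not reported here.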

Additional observations from a re-analysis of the deposited data

Results flagged for a closer look

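For 4 genes the ratio of ENPP1CKO over control was past 2-fold in the members and had the other sign in the C1q macrophages of the same libraries. The log2 ratios in members and in C1q macrophages were −3.40 and 0.52 for Cxcl2, −2.90 and 0.21 for Ier3, −2.77 and 0.23 for Clec4n, and −1.73 and 0.96 for Il1b. Without the antibody-rich members the first of each pair became −2.85, −2.36, −2.24 and −1.19. With 1 library per genotype these differences were not tested.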

How the results depend on the processing

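No paired analysis was possible because each genotype had 1 library and no test was run. Against 12 genes 2-fold or more higher and 163 lower in ENPP1CKO over all 82 members, thinning each barcode to 2000 counts gave 6 and 65. A minimum of 20 counts per gene gave 36 and 508, a minimum of 200 gave 4 and 19, and setting the median ratio to 0 gave 21 and 85, the median then being 0 by construction. Leaving out the antibody-rich members, chosen after seeing the data, gave 89 lower genes, and leaving out those without Plac8, Ccr2 and Ms4a4c as well, also chosen afterwards, gave 102. The median log2 ratio, −0.45 over all members, was −0.064 and −0.066 with these left out, −0.12 after thinning, −0.18 as a mean over cells, −0.35 with 5 or more Ly6c2 and Chil3 counts and −0.62 with at least 1 Ly6c2 count. That last rule left 49 control members, 0.916% of control barcodes. Of the gene ratios followed, 4 that were under 2-fold over all members changed sign under 5 settings each, to at most 0.39 for Plac8, 0.48 for Ccr2, 0.36 for Ms4a4c and 0.60 for H2-Ab1. The medians of 10 lists also changed sign, that of MHC class II from −0.34 to at most 0.72, and 0 of these 14 were past 2-fold as reported. The cause of the other shifts was not tested. With 10 to 15 ENPP1CKO members over these settings, genes with few counts could not be compared closely.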
